A study of Rattus norvegicus with 6 samples.

Results

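Transcripts that mark bile duct epithelium and liver progenitor cells were followed in rat livers given a carcinogen regimen with or without N-acetylcysteine. The genes were chosen by name and Ensembl gene ID: 4 were listed, and 3 of them, Epcam (ENSRNOG00000015667), Cd44 (ENSRNOG00000006094) and Spp1 (ENSRNOG00000043451), were measured among 43360 gene IDs. Sox9, a transcription factor of biliary and progenitor cells, was not analysed here, because its listed ID was not among these gene IDs. All 3 measured genes passed the filter on low counts, as did 16898 gene IDs in all. The symbols came with the list of genes, and the pairing of each ID with its symbol could not be checked, because the reference table used here holds no Ensembl IDs.

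The samples were total liver RNA from male rats of the inbred Fischer-344 strain, sequenced after poly(A) selection. Control rats were given 0.5% carboxymethyl cellulose, the oral vehicle, each day. HCC rats were given diethylnitrosamine (DEN), a DNA-alkylating carcinogen, weekly at 50 mg/kg by intraperitoneal injection, and then 2-acetylaminofluorene (2-AAF) by mouth at 25 mg/kg. HCC/NAC rats had both carcinogens and also 300 mg/kg of N-acetylcysteine (NAC), a precursor from which cells make glutathione, by mouth each day. Injury lasted 16 weeks, and the design counts 18 rats over the 3 groups. In each group, RNA of 5 animals was pooled into 2 libraries, and no value belongs to 1 rat. The labels call them biological replicates and do not say how the 5 animals were divided; separate pools of 5 for each of the 6 libraries would need more rats than the design counts. An n of 2 therefore counts libraries, and the p-values measure only the spread between libraries, which may be technical.

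In the adult liver the lining of the bile ducts is epithelial, whereas hepatocytes fill most of the lobule. When hepatocytes are damaged and kept from dividing, small cells with biliary and hepatocyte traits, called oval cells in rodents, can spread out from the portal tracts in what is known as a ductular reaction. In rats 2-AAF is a classical means of blocking hepatocyte division so that oval cells expand. EpCAM is a cell adhesion glycoprotein of epithelia that is found on biliary and progenitor cells and is lacking on most mature hepatocytes. CD44 is a cell surface receptor for hyaluronan, carried by progenitor cells but also by leukocytes and other cells. Osteopontin, the product of Spp1, is a secreted matrix glycoprotein made by biliary cells and by macrophages, and it can bind CD44 and integrins.

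The 3 genes were all higher in both carcinogen-treated groups than in control, as given further on, and the sequences before their transcription start sites are therefore shown. Each is the 250 bases upstream of the RefSeq start site on build GRCr8, matched by symbol and read on the gene's strand, which is the minus strand for all 3. The positions are chr6:12649679-12649928 for Epcam, chr3:109699425-109699674 for Cd44 and chr14:5619805-5620054 for Spp1. Capitals mark matches, on either strand, to any of the short motifs searched.
Epcam: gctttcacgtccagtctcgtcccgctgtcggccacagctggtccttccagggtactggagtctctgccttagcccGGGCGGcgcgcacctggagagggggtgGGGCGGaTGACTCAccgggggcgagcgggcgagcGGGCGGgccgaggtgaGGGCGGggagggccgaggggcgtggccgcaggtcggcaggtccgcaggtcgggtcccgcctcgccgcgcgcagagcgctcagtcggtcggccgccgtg
Cd44: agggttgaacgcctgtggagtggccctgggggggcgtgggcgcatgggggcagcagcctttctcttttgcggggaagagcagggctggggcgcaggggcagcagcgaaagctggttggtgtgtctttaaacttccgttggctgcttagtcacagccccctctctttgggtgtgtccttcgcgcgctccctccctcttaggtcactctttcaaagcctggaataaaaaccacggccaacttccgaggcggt
Spp1: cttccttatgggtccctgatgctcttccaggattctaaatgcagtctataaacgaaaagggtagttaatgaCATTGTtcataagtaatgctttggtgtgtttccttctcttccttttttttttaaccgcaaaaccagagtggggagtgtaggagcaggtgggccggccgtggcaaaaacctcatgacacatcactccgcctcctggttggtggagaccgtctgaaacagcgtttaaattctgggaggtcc
The motifs were TGANTCA (AP-1), GGGCGG (the GC box), ACAATG (SOX factors), TGGGAA (RBPJ, the NOTCH effector), GGAATG (TEAD, the partner of YAP) and ATCAAAG (TCF). The Epcam window held 4 GC boxes, a motif found in 30.5% of 33469 promoter windows of the same length, and 1 AP-1 match, found in 6.34%. The Spp1 window held 1 SOX match, a motif found in 11.1% of windows. The Cd44 window held 0 matches to any of them. RBPJ, TEAD and TCF motifs, present in 22.1%, 12.1% and 3.15% of windows, were matched in 0 of the 3 sequences. The GC content was 75.6% for Epcam, 60.8% for Cd44 and 46.8% for Spp1, beside a median of 51.2% over all windows. A match describes these letters and is not a measured binding site, and no motif was common to the 3 windows.

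Library totals ranged from 33917707 to 37717373 counts. Levels are given as CPM (counts scaled to a common library size) after scaling by the trimmed mean of M-values (TMM), and folds and adjusted p-values come from edgeR's quasi-likelihood test over all 16898 gene IDs with Benjamini-Hochberg adjustment. A gene rose or fell where the adjusted p was under 0.05. CPM is not divided by transcript length, so levels are compared between libraries and not between genes. In whole liver RNA, more cells of a type and more RNA per cell cannot be told apart. Gene lists for other biliary, progenitor, macrophage and hepatocyte markers were drawn up by symbol and could not be matched to IDs, so the tissue label and the cellular source of the 3 transcripts were not tested.

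HCC livers were set against control livers to ask whether the carcinogens changed the ductular and progenitor transcripts. All 3 genes rose, Epcam 6.76-fold, Cd44 7.15-fold and Spp1 3.32-fold. An adjusted p under 0.05 with a higher level in HCC was reached by 17.0% of all gene IDs. In all 3 genes both HCC libraries lay above both control libraries, which held for 38.3% of gene IDs. The median log2 fold change was 2.76 over the 3 genes and 0.05 over all gene IDs tested.

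Epcam, the epithelial adhesion molecule, stood at 10.1 and 10.5 CPM in the control libraries, from 348 counts in each. In the HCC libraries it stood at 71.2 and 68.0 CPM, from 3206 and 2724 counts. The gap between the groups was far wider than that between replicates, whose higher value exceeded the lower 1.04-fold in control and 1.05-fold in HCC livers. Group means were 10.3 ± 0.31 CPM in control and 69.6 ± 2.3 CPM in HCC livers (SD, n = 2 each). The 6.76-fold rise had a 95% confidence interval of 5.74 to 7.96, and on the log2 scale it was 2.76 ± 0.11 (SE), with adjusted p = 1.21e-09 by edgeR. A log2 fold change at least as high was seen in 8.22% of gene IDs. For the rises of Cd44 and Spp1 in the same comparison the share was 7.94% and 13.2%.

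Cd44, the hyaluronan receptor, stood at 2.52 and 1.81 CPM in control livers, from 87 and 60 counts. In HCC livers it stood at 16.3 and 14.8 CPM, from 733 and 592 counts. The control libraries were the more uneven pair, 1.39-fold apart, against 1.10-fold for the HCC pair, and the groups did not overlap. Means were 2.17 ± 0.50 CPM in control and 15.5 ± 1.1 CPM in HCC livers (SD, n = 2 each). The 7.15-fold rise of Cd44 had a 95% confidence interval of 5.12 to 9.98, and on the log2 scale it was 2.84 ± 0.22 (SE), with adjusted p = 6.93e-07 by edgeR. From the nearest to the farthest pair of single libraries, the fold ranged from 5.87 to 8.98, compared with 6.47 to 7.06 for Epcam.

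Spp1, the symbol listed for the third ID and the gene of osteopontin, had the fewest counts of the 3. This ID stood at no more than 3.46 CPM in the control and HCC libraries, and no reference level of osteopontin was at hand. Its pairing with the symbol was not checked and needs particular care. Each control library held 34 counts, with an exact 95% Poisson interval of 23.6 to 47.5. The HCC libraries held 156 and 129 counts, with intervals of 133 to 183 and 108 to 153. These intervals did not meet those of the controls, although they are of unscaled counts and cover counting error only. In CPM the gene stood at 0.98 and 1.03 in control and at 3.46 and 3.22 in HCC livers. Means were 1.01 ± 0.030 and 3.34 ± 0.17 CPM (SD, n = 2 each). The 3.32-fold rise had a 95% confidence interval of 1.74 to 6.31, and on the log2 scale it was 1.73 ± 0.42 (SE), with adjusted p = 0.00722 by edgeR. With 1 HCC library left out the direction was kept, at a log2 fold change of 1.68 without HCC replicate 1 and 1.78 without HCC replicate 2. The call was lost in both fits, which leave 1 HCC library. Fewer of all gene IDs were also called in these fits than in the fit to all libraries. The model draws part of its spread from gene IDs of like abundance, and its interval for Spp1 was much wider than the range of single library folds, 3.14 to 3.52.

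**Figure D1:**
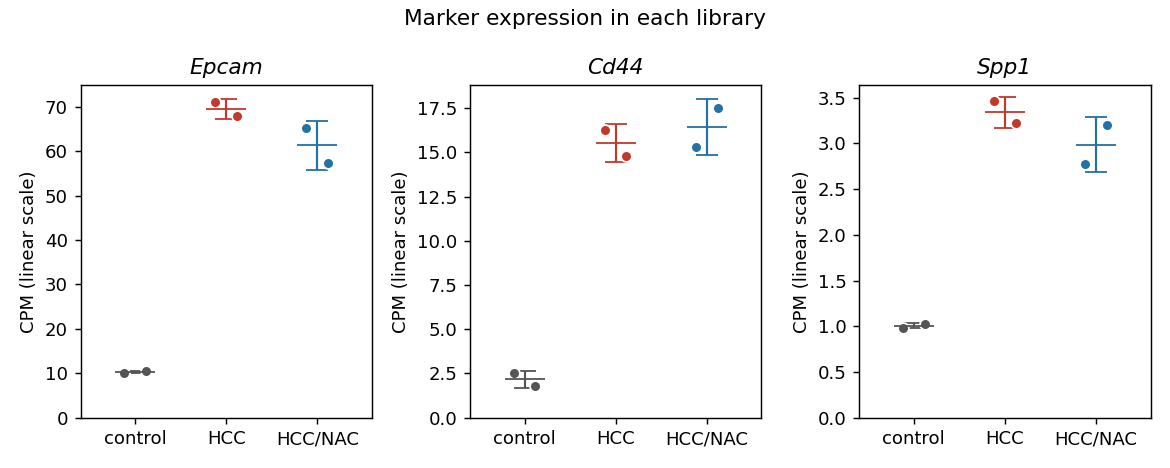
Level of each gene in CPM on a linear scale in control, HCC and HCC/NAC livers; points are single libraries, horizontal bars the group mean and whiskers the SD of 2 libraries. The carcinogen-treated libraries lie above both control libraries in every panel. With TMM scaling, HCC and HCC/NAC means lie close together (69.6 and 61.3 CPM for Epcam, 15.5 and 16.4 for Cd44, 3.34 and 2.99 for Spp1). With library totals alone they lie farther apart for all 3 genes.

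HCC/NAC livers were set against control livers to ask whether the markers were also raised when NAC was given with the carcinogens. All 3 genes rose, and the share of all gene IDs called higher in this comparison was 21.3%. Both HCC/NAC libraries lay above both control libraries for all 3 genes and for 35.1% of gene IDs. The median log2 fold change was 2.57 over the 3 genes and 0.05 over all gene IDs. This comparison used the same control libraries as the one before, so both sets of rises are not independent.

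Epcam stood at 65.3 and 57.3 CPM in the HCC/NAC libraries, from 2167 and 1863 counts. Its mean of 61.3 ± 5.6 CPM (SD, n = 2) was 5.95-fold that of control (95% confidence interval 5.06 to 7.01; adjusted p = 2.4e-09, edgeR). Cd44 stood at 15.3 and 17.5 CPM, from 508 and 570 counts. The mean for this receptor, 16.4 ± 1.6 CPM (SD, n = 2), was 7.56-fold that of control (95% confidence interval 5.41 to 10.6; adjusted p = 4.86e-07, edgeR). Spp1 stood at 2.77 and 3.20 CPM, from 92 and 104 counts. Its mean was 2.99 ± 0.30 CPM (SD, n = 2), and the fitted rise was 2.96-fold (95% confidence interval 1.55 to 5.65; adjusted p = 0.00993, edgeR). Fitted to the HCC/NAC and control libraries alone, this ID kept its direction and missed the threshold, with adjusted p = 0.0527 by the same test. For each gene the lowest HCC/NAC library stood well clear of the highest control library, by 5.45-fold for Epcam, 6.07-fold for Cd44 and 2.70-fold for Spp1. In the same order, log2 fold changes at least as high were seen in 8.91%, 7.46% and 15.8% of gene IDs.

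**Figure D2:**
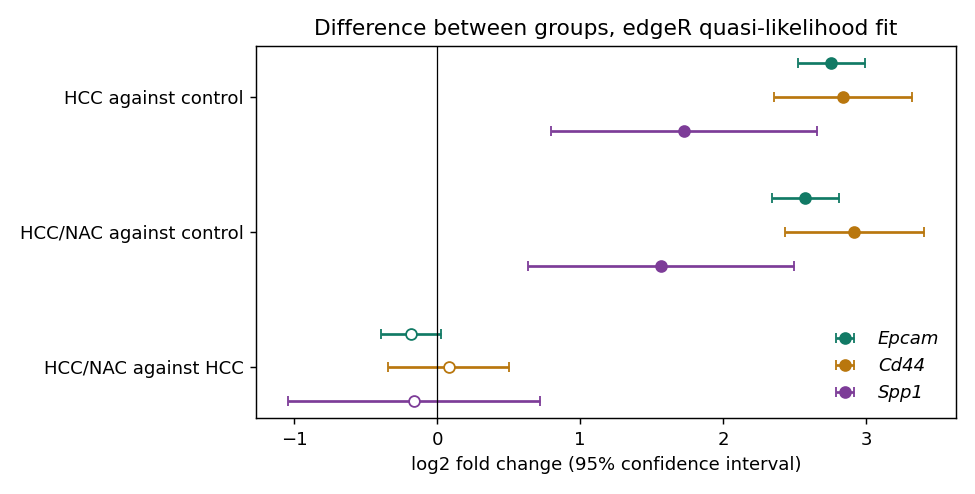
Fitted log2 fold change with its 95% confidence interval for the 3 genes in the 3 comparisons; filled points had an adjusted p under 0.05 and open points did not. The intervals against control lie above 0 for all 3 genes, and those of HCC/NAC against HCC all include 0.

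HCC/NAC livers were then set against HCC livers, both of which had the carcinogens and differed in NAC. No change was called in Epcam, Cd44 or Spp1: 0 of 3 had an adjusted p under 0.05 by edgeR, by DESeq2 or by limma. Over all 16898 gene IDs tested, edgeR called 27.7%, DESeq2 called 4717 and limma called 5452. Beside such shares, a count of 0 among 3 genes says little about these genes. The unadjusted p-values by edgeR were 0.082 for Epcam, 0.683 for Cd44 and 0.693 for Spp1. The median log2 fold change was -0.16 over the 3 genes and -0.05 over all gene IDs tested. These p-values do not show that the levels were equal, and the intervals state what size of difference the libraries leave possible under TMM scaling.

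For Epcam both HCC/NAC libraries lay below both HCC libraries, 65.3 and 57.3 against 71.2 and 68.0 CPM. The same was true of Spp1, at 2.77 and 3.20 against 3.46 and 3.22 CPM, where the closest libraries were nearly level. Both libraries of HCC/NAC thus lay lower in 2 of the 3 genes, and did so in 36.9% of all gene IDs. Epcam in HCC/NAC was 0.88 of the HCC level (95% confidence interval 0.761 to 1.02; adjusted p = 0.192, edgeR). Spp1 was 0.893 of the HCC level, with a wide interval of 0.485 to 1.64 (adjusted p = 0.827, edgeR). Cd44 had overlapping groups, at 15.3 and 17.5 CPM with NAC and 16.3 and 14.8 CPM without. Its ratio was 1.06 (95% confidence interval 0.79 to 1.41; adjusted p = 0.82, edgeR). With TMM scaling the interval for Epcam reached down to 0.761 of the HCC level and that for Spp1 to 0.485. These intervals cover only the spread between libraries under that scaling. With library totals alone the log2 fold change of Epcam was -0.56, beyond the lower end of -0.393 with TMM.

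The scaling of the libraries mattered for this comparison. TMM factors were 1.19 and 1.18 for the HCC libraries and between 0.914 and 0.92 for the other 4. With library totals alone, a choice made after seeing the data, Epcam fell with NAC by 0.56 on the log2 scale (adjusted p = 0.000631, edgeR), and Cd44 turned from 0.08 to -0.29 (adjusted p = 0.267). Under that scaling the median of all gene IDs moved from -0.05 to -0.42, and 6594 of 16898 gene IDs were called, beside 4686 with TMM. Relative to the median, Epcam differed by -0.14 and Cd44 by 0.13, beside -0.13 and 0.13 with TMM. A change of scaling shifts all gene IDs of a comparison about equally. The difference from the median therefore stays nearly the same by construction and does not decide between the scalings.

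**Figure D3:**
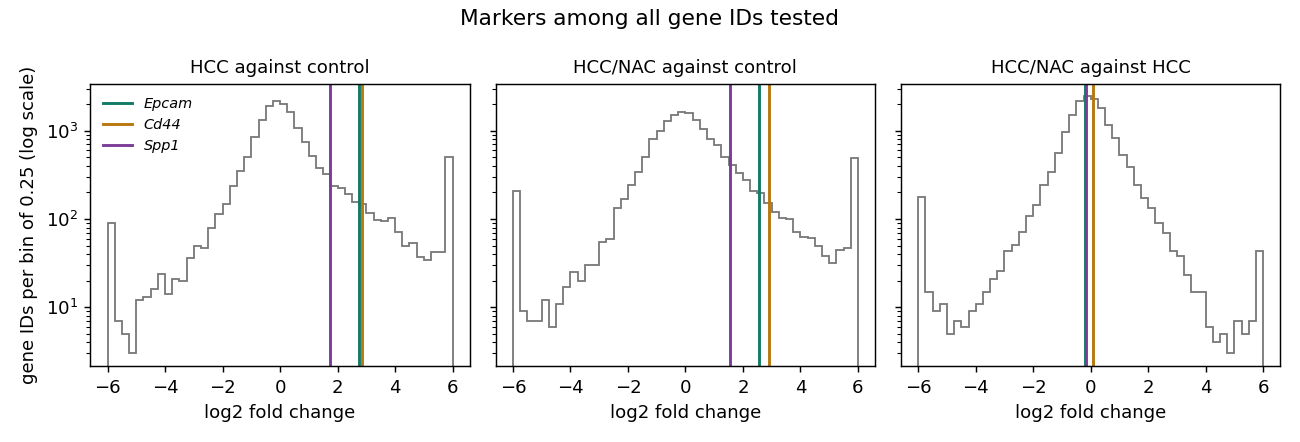
Number of gene IDs (log scale) per bin of 0.25 in log2 fold change over the 16898 tested, with values beyond 6 in either direction placed in the end bins, and a coloured line at each of the 3 genes. Against control the lines stand on the right of the distribution, between 1.57 and 2.92, and in HCC/NAC against HCC they stand near its centre, between -0.18 and 0.08.

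Ordered by level, each gene had its lowest mean in control livers. HCC was the highest group for Epcam and Spp1 and HCC/NAC for Cd44, and in each case the difference between those neighbours did not pass the test. The counts of 1 gene relative to another within a library do not depend on scaling and show how evenly the genes moved. The number of Epcam counts per Cd44 count was 4.00 and 5.80 in control, 4.37 and 4.60 in HCC and 4.27 and 3.27 in HCC/NAC libraries. The control values lay on either side of both HCC values, and the HCC/NAC values overlapped those of control. Both HCC/NAC values lay below both HCC values, the nearest at 4.27 and 4.37, and this difference was not tested. The number of Epcam counts per Spp1 count was 10.2 in both control libraries, 20.6 and 21.1 in HCC and 23.6 and 17.9 in HCC/NAC libraries. Cd44 counts per Spp1 count were 2.56 and 1.76 in control, 4.70 and 4.59 in HCC, and 5.52 and 5.48 in HCC/NAC libraries. Both ratios to Spp1 were thus higher in all 4 carcinogen-treated libraries than in either control library, and the difference in fold between the genes was not tested. How often the ratios of other gene pairs separate groups in this way was not counted, so such separation alone says little. The HCC/NAC libraries differed from each other in Epcam relative to Cd44 and to Spp1, with replicate 2 the lower in both ratios.

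**Figure D4:**
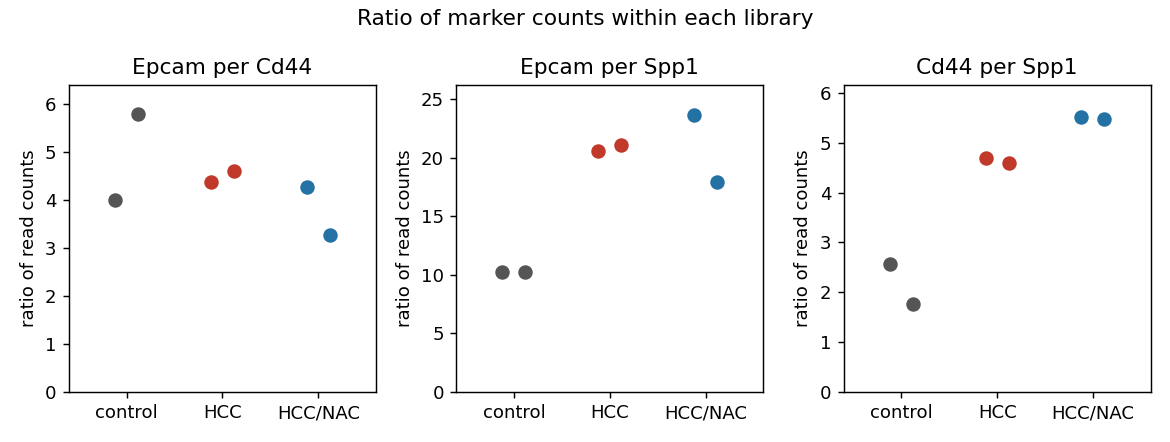
Ratio of read counts between 2 genes within each of the 6 libraries, by group, with axes from 0. Epcam per Cd44 lies between 3.27 and 5.80. In this ratio both carcinogen-treated groups overlap control, and both HCC/NAC values lie below both HCC values. Both ratios to Spp1 are higher in the carcinogen-treated libraries (17.9 to 23.6 for Epcam and 4.59 to 5.52 for Cd44) than in control. Differences in ratio were not tested.

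The gene IDs with the pattern most like a marker were found by the root mean square difference of log2 CPM, each gene centred on its mean over the 6 libraries, among 11872 other IDs with a mean of at least 2 CPM. The ID closest to Epcam was ENSRNOG00000010805, which carries no symbol here, with a difference of 0.11. It stood at 3.93 ± 0.050 CPM in control, 26.3 ± 2.8 CPM in HCC and 23.7 ± 1.7 CPM in HCC/NAC livers (SD, n = 2 each). Cd44 differed from Epcam by 0.24, and 26 IDs were closer to Epcam than Cd44 was. Spp1 differed from Epcam by 0.51, with 272 IDs closer. With 6 libraries in 3 groups, likeness of this kind describes the order and size of the group means and little else.

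The libraries also differed in how many gene IDs had 1 to 5 counts: 336 in control replicate 1 and 3271 in control replicate 2, 2847 and 3364 in the HCC pair, and 632 and 708 in the HCC/NAC pair. The part of these differences in the markers was not tested. Without control replicate 1 the log2 fold changes of HCC against control were 2.73 for Epcam, 3.10 for Cd44 and 1.70 for Spp1. Without control replicate 2 they were 2.85, 2.69 and 1.83. Each of these fits leaves 1 control library. The header of the count table of HCC replicate 1 names input datasets 8 and 13, whereas each of the other 5 names consecutive datasets, and the pairing of its reads could not be checked. Without HCC replicate 1 the log2 fold changes of HCC against control were 2.73 for Epcam, 2.77 for Cd44 and 1.68 for Spp1, the last without a call. The names of the deposited tables carry a different prefix for the controls than for the carcinogen-treated libraries. What it marks is not stated, and if it is a batch, batch and carcinogen treatment cannot be told apart.

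**Figure D5:**
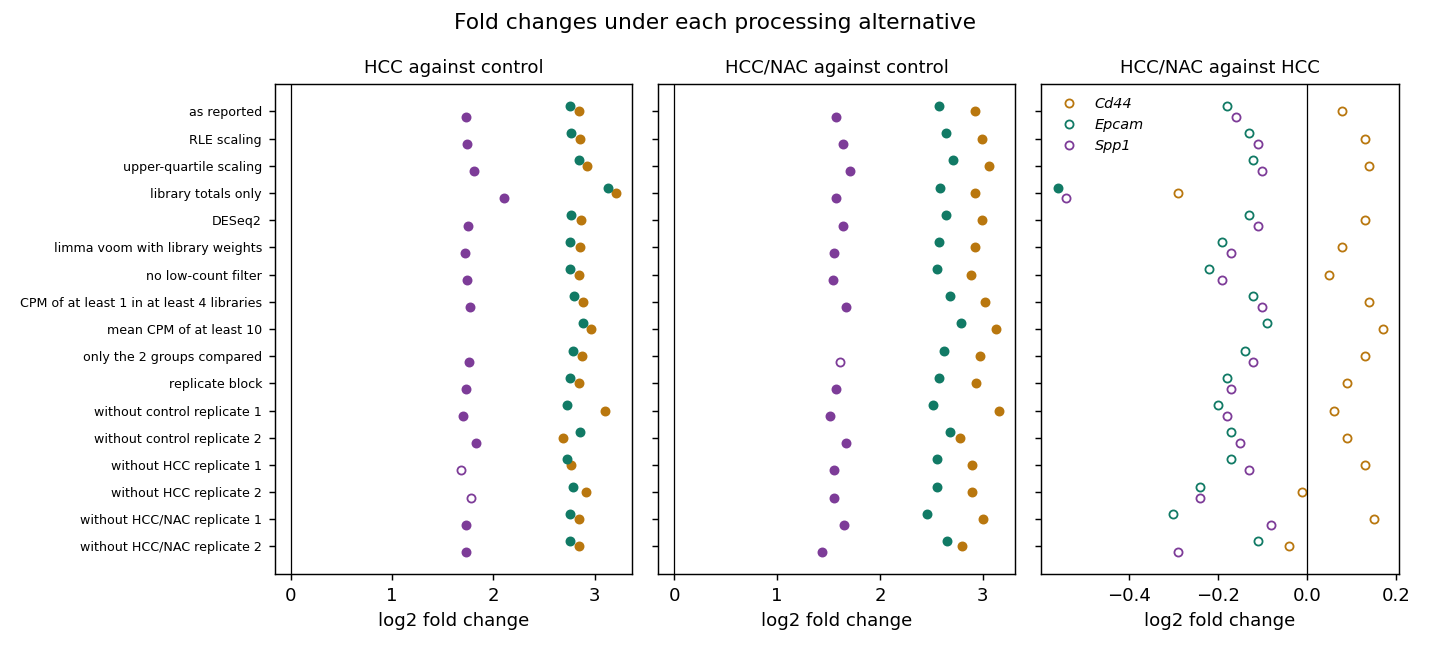
Log2 fold change of the 3 genes as reported and under each processing alternative (rows), in the 3 comparisons; filled points had an adjusted p under 0.05 and open points did not. Against control the values stay between 1.44 and 3.21, with Spp1 open in 3 places; in HCC/NAC against HCC they lie between -0.56 and 0.17, and the only filled point is Epcam with library totals.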

How the data were processed

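Poly(A) RNA of rat liver was measured in 6 libraries, 2 per group. The tools named in the submitters' processing notes are STAR, featureCounts, FastQC and edgeR. Their versions, the build, the annotation and the counting settings (strand, read pairs) were not stated in the sources used here. Raw counts per Ensembl gene ID were deposited; they come from STAR alignments, per the file headers. Reads of paralogs or overlapping genes may be split or dropped in ways not stated, and a count is not a molecule.

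The tests used edgeR 4.0.16 (R 4.3.3). After filterByExpr and TMM scaling, 1 quasi-likelihood model with a mean per group was fitted to all 6 libraries, which leaves 3 residual degrees of freedom; the groups share the estimate of spread because 2 libraries give little information alone. Standard errors and 95% intervals were derived from the F statistic, and p-values were adjusted over all IDs tested. The fit was tested on simulated data. The genes and lists were chosen with earlier results of these data known. The genes named are the 4 listed and the ID closest in pattern to Epcam; symbol lists could not be matched. Alternatives were DESeq2 1.42.0, limma 3.58.1 (voom with library weights), upper-quartile and RLE scaling, 3 other count filters, fits without the third group, the replicate number as a block and leaving out each library; library totals without TMM were added after the data were seen. Promoter sequences are from RefSeq (GRCr8), and 3 of 3 measured genes matched.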

Additional observations from a re-analysis of the deposited data

How the results depend on the processing

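The 141 alternative log2 fold changes of the 3 genes came from refits of the same libraries and are not independent. Some could hardly change, such as those without a library of the group not compared. Of the 141, 134 kept their direction and their side of the threshold. Epcam and Cd44 against control did so in all 16 alternatives in both comparisons, with log2 fold changes from 2.73 to 3.13 and from 2.69 to 3.21 in HCC, and from 2.46 to 2.79 and from 2.78 to 3.16 in HCC/NAC. Spp1 against control ranged from 1.68 to 2.10 in HCC and from 1.44 to 1.71 in HCC/NAC. It lost its call in 3 of 30 alternatives. In HCC these were at 1.68 without HCC replicate 1 and at 1.78 without HCC replicate 2. In HCC/NAC it was at 1.61 with the compared groups only. These 3 use fewer libraries, as did others that kept the call, such as HCC with the compared groups only (1.76). In each of these 3 fits fewer of all gene IDs were called than in the fit to all libraries. For HCC/NAC with the compared groups only, 6618 gene IDs were called, beside 7807. The reason was not tested. The requirement of a mean of at least 10 CPM left Spp1 untested. In HCC/NAC against HCC, library totals alone gave 1 call in place of 0, Epcam at -0.56, and turned Cd44 to -0.29. That scaling called 6594 of 16898 gene IDs in this comparison, beside 4686 with TMM. The uncalled difference of Cd44 also changed sign without HCC replicate 2 (-0.01) and without HCC/NAC replicate 2 (-0.04), in a range from -0.04 to 0.15 over the 6 libraries left out. Leaving out 1 library at a time gave log2 fold changes in HCC against control of 2.73 to 2.85 for Epcam, 2.69 to 3.1 for Cd44 and 1.68 to 1.83 for Spp1. In the same order of genes they were 2.46 to 2.68, 2.78 to 3.16 and 1.44 to 1.67 in HCC/NAC against control. In HCC/NAC against HCC they were -0.3 to -0.11, -0.04 to 0.15 and -0.29 to -0.08. A lone library was assumed to vary like those of the other groups.

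The replicate numbers are shared by the groups, but the deviations of same-numbered libraries correlated at -0.01, 0.01 and 0.00 across gene IDs between the pairs of groups, and the labels tie no number to an animal or day. With the replicate block 3, 3 and 0 of the 3 genes were called, as without it. In the same order of comparisons, that fit called 5982, 7650 and 4861 of 16898 gene IDs in either direction. Spp1 had the fewest counts of the 3 genes, 34 per control library.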

Other observations

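The control libraries held the same number of counts for 2 of the 3 genes, 348 for Epcam and 34 for Spp1, a feature picked out after the values were seen. Equal counts in both control libraries were found for 3.78% of the gene IDs tested, and for 0.802% of those with a mean count from 20 to 1000. Cd44 differed between the same libraries, with 87 and 60 counts, and the libraries differed in their totals, 37541682 and 36256702.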
